A study of Homo sapiens with 13 samples.

Results

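The E2F factors, the pocket proteins and the subunits of the DREAM and MuvB complexes were followed in H1975 cells, a human lung adenocarcinoma line, over 48 h in starvation medium. The members were the 10 genes E2F1, E2F2, E2F7, E2F8, RB1, RBL1, RBL2, MYBL2, FOXM1 and LIN9, of 12180 gene symbols tested. They were taken by the gene symbol that the platform annotation gives a feature. Each of the 10 had 1 feature on the array, so no choice between probesets was needed. All 10 passed the filter on dim features, which asks for a highest value above 0.

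All cells belonged to the control arm. They had grown for some days, were then starved overnight in medium without FCS, and are labelled as treated with starvation medium. The 0 h cells had thus been starved overnight as well. Of the 13 arrays, all of this single cell line, 3 were taken at 0 h and 3 at 48 h, 2 at 24 h, and a lone array at each of 0.5, 1, 2, 4 and 6 h. The labels are silent on whether replicates came from separate cultures, and the p-values then cover only the spread among these arrays, which may be technical. Values are SCAN scores, in which each array is standardised on its own and background lies near 0. The score is not a log2 scale, and a difference is given in SCAN units.

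E2F factors bind DNA mostly as dimers with a DP protein and switch on the genes of DNA replication. The pocket proteins RB1, RBL1 (p107) and RBL2 (p130) bind E2F factors and hold these genes silent until cyclin-dependent kinases phosphorylate the pocket protein. In resting cells RBL2, or RBL1, joins a repressor E2F, a DP protein and the MuvB core, of which LIN9 is a subunit, in the DREAM complex, which keeps cell cycle genes off. In cycling cells the same MuvB core binds MYBL2 (B-MYB) and then FOXM1, and these complexes activate the genes of mitosis. E2F1 and E2F2 are activators, whereas E2F7 and E2F8 are atypical repressors that bind DNA without a DP protein.

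The promoters of 3 members carry an E2F site just upstream of the annotated start, and they are shown because these genes were measured together with the factors that bind such sites. The stretches are the 100 bases before the start, from RefSeq on GRCh38.p14, written 5′ to 3′ on the strand of the gene. Capitals mark the E2F octamers TTTCCCGC, TTTGGCGC, TTTCGCGC and TTTGCCGC on either strand. E2F1 lies at chr20:33686386-33686485, E2F2 at chr1:23531234-23531333 and RBL1 at chr20:37095998-37096097, all on the minus strand. RBL2, at chr16:53434371-53434470 on the plus strand, is shown as a stretch that holds no octamer. The same stretches of E2F7, LIN9 and MYBL2 hold none either, and LIN9 and MYBL2 fell by 48 h whereas RBL2 rose. Other forms of the E2F site were not searched, and a link between octamers and the changes was not tested.
E2F1: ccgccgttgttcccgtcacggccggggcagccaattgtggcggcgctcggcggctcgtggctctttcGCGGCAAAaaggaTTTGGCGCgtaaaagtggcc
E2F2: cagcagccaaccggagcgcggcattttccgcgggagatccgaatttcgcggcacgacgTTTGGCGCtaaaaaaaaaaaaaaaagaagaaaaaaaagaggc
RBL1: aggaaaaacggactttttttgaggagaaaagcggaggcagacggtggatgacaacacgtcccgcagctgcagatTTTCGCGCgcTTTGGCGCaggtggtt
RBL2: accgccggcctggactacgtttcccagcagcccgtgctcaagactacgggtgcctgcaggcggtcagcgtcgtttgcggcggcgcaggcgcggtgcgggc

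E2F1 and RBL1 each hold 2 octamers close to the start. In E2F1 they lie at -33 to -26, on the opposite strand, and at -20 to -13. In RBL1 they lie at -26 to -19 and at -16 to -9, and the single octamer of E2F2 lies at -42 to -35. Windows of 300 bases, from 250 before to 50 after the start, were at hand for 7 members at or near the start of their gene, and 3 of these 7 hold an octamer, against 3.99% of 27305 genes. A window listed for RB1 starts 172699 bases inside the gene and was not counted. The windows of all genes were not screened in this way. The members were chosen by name as factors of this pathway, so their shares are no independent evidence. The second motif searched was the CHR, the element through which MuvB complexes reach the genes of mitosis, with the letters TTTGAA and TTCGAA on both strands. It was matched in 2 of the 7, LIN9 and RBL2, against 19.5% of all genes, and no match overlapped an octamer. In RBL2 it lies at 25 to 30 bases after the start, and LIN9 holds one at -60 to -55 and one at -3 to 3 around the third of its annotated starts. A match is a run of letters and not a bound site.

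**Figure D1:**
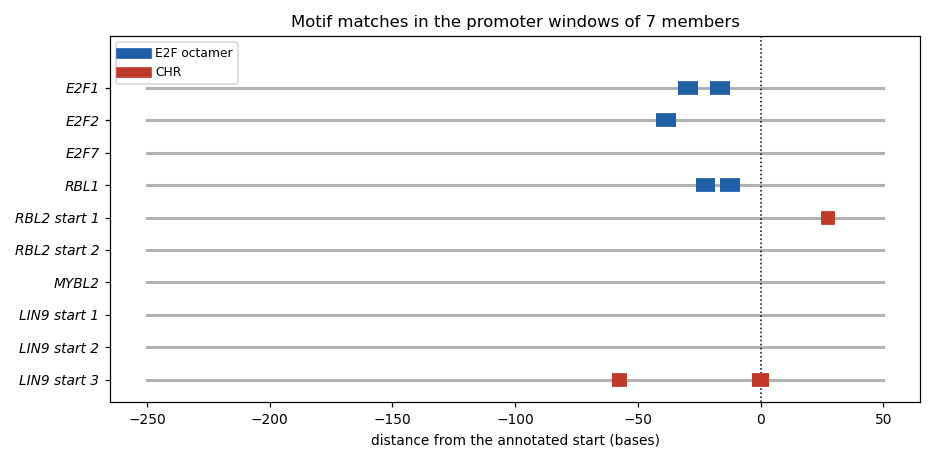
Motif matches in the promoter windows of 7 members, drawn by distance in bases from the annotated start, with 1 line for each start. Blue blocks are E2F octamers, which lie between -42 and -9 in E2F1, E2F2 and RBL1, and red blocks are CHR elements, found in LIN9 and RBL2.

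Among the 8 arrays up to 6 h, a pair set itself apart, namely 0 h replicate 1 and the array of 2 h. Replicate 1 correlated with the other 0 h arrays at 0.982 and 0.983, where these correlated at 0.996. For 4977 of 12764 features (39.0%) both arrays lay outside the range of the other 6 on the same side, and this held for 5 of the 10 members. E2F8, RB1 and RBL1 were higher on both arrays, and MYBL2 and FOXM1 were lower. Values are therefore given over all 13 arrays and then over the 11 others. In the tests a time point with 1 array adds nothing to the estimate of the spread. Test results over the 11 arrays thus equal those without 0 h replicate 1 alone. Over the tested features the median SD of the 0 h replicates was 0.056 with replicate 1 and 0.0297 without it. Of 5 epithelial markers 4 had a named feature, EPCAM, KRT7, KRT8 and KRT18, with medians from 0.805 to 2.89. Of the markers of fibroblasts, leukocytes and endothelium DCN, LUM, CD14 and VWF lay near 0 on every array, between -0.149 and 0.156. CD68, listed for leukocytes, had a median of 2.46, and KDR, listed for endothelium, went from a mean of 0.385 at 0 h to 0.912 at 48 h. The part of these genes in the results was not tested.

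Between 0 h and 48 h, 8 of the 10 members fell and 1 rose, whereas E2F7 did not pass the test. E2F8 fell by 0.685 and MYBL2 fell by 0.674, the largest falls among the members, and RBL2 rose by 0.182. For comparison, 9.38% of the 12764 features tested were called lower and 9.47% higher, 18.8% in all (limma, two-sided, adjusted p under 0.05). The median difference was -0.393 over the 10 members and -0.00173 over all features. Over the 11 arrays 9 members fell, E2F7 among them, and RBL2 rose, against 12.4% and 14.3% of features. As bulk RNA was measured, fewer cycling cells and less RNA per cell cannot be told apart.

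Counted by array rather than by test, 9 members were lower and 1 higher at 48 h with no overlap with 0 h, where 17.3% of features were lower and 17.6% higher in this way. Set against all 8 arrays up to 6 h, 8 members were lower at 48 h, against 1664 of 12764 features, and RBL2 was higher, against 9.45%. With the 24 h arrays included, E2F1, E2F2, E2F8, RB1, RBL1 and LIN9 lay below and RBL2 above all 8 early arrays, against 5.71% and 5.94% of features. At 24 h against 0 h 7 members were lower and 1 higher without overlap, against 11.7% and 23.3%, and at 48 h against 24 h 7 were lower and 0 higher, against 29.2% and 11.6%.

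**Figure D2:**
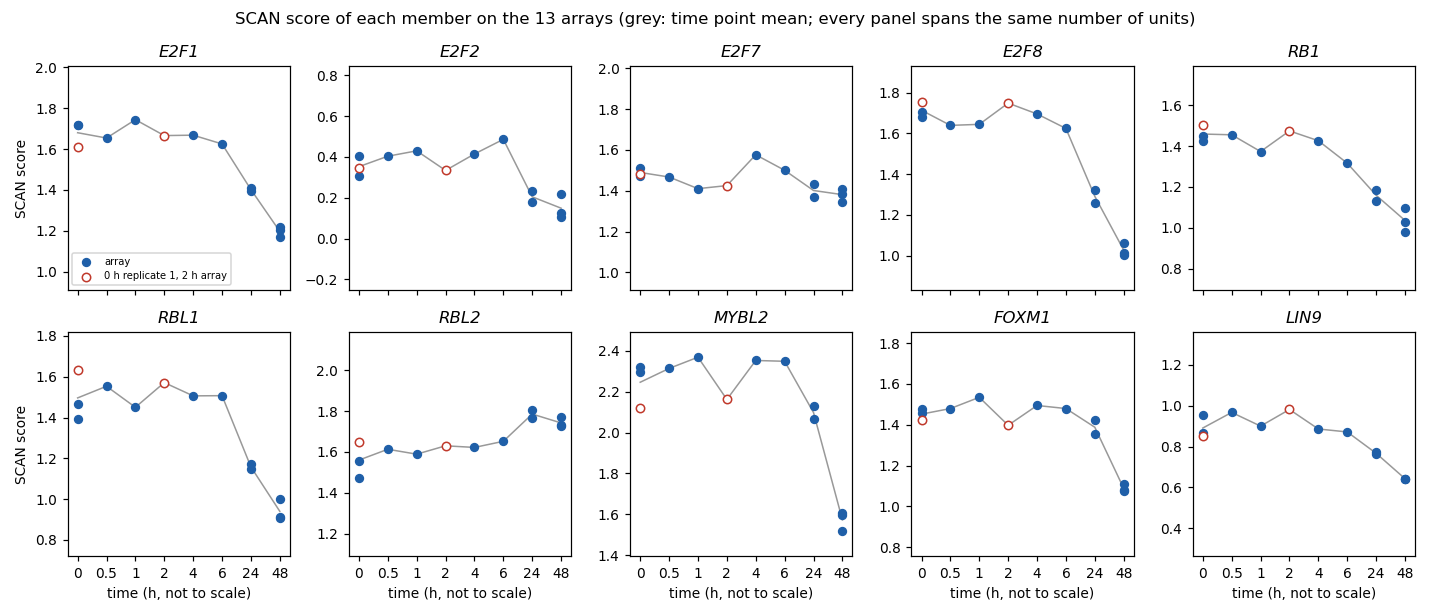
SCAN score of each member by time in hours (not to scale), 1 point for each of 13 arrays, with the mean of each time point in grey. Open red points are 0 h replicate 1 and the 2 h array. The scores stay near the 0 h level up to 6 h, and at 48 h all but E2F7 lie outside the range of the 8 arrays up to 6 h.

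Among the activators, E2F1 was 1.61, 1.72 and 1.72 on the 0 h arrays, 1.41 and 1.39 at 24 h, and 1.22, 1.17 and 1.20 at 48 h. On the arrays of 0.5, 1, 2, 4 and 6 h it lay between 1.62 and 1.74. The 24 h and 48 h arrays thus lay below every earlier array, and the 48 h arrays below those of 24 h. Its mean of 1.68 ± 0.0624 (SD, n = 3) at 0 h became 1.20 ± 0.0231 (SD, n = 3) by 48 h. E2F1 thus fell by 0.483 (SE 0.0381, limma adjusted p = 1.05e-05). E2F2 lay closer to background, at 0.344, 0.309 and 0.404 at 0 h, 0.232 and 0.178 at 24 h, and 0.106, 0.217 and 0.124 at 48 h. Its 24 h and 48 h arrays overlapped, and all 5 lay below the 8 earlier arrays, of which the 6 h array was the highest at 0.486. E2F2 fell by 0.203 at 48 h (SE 0.0414, adjusted p = 0.00603).

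Of the atypical repressors E2F8 fell and E2F7 did not pass, and the difference between them was not tested. E2F8 was 1.75, 1.68 and 1.71 at 0 h, 1.32 and 1.26 at 24 h, and 1.01, 1.06 and 1.01 at 48 h. None of these groups overlapped. E2F8 fell by 0.685 (SE 0.0363, adjusted p = 1.03e-06), and only 0.384% of all features fell further. E2F7 was 1.48, 1.47 and 1.51 at 0 h, 1.37 and 1.43 at 24 h, and 1.35, 1.41 and 1.39 at 48 h, and its highest value was 1.58 on the 4 h array. The 48 h arrays lay below the 0 h arrays and reached the level of the 1 h array, at 1.41. Its difference at 48 h was -0.109 (SE 0.0346, 95% confidence interval -0.186 to -0.0324, adjusted p = 0.0511). Over the 11 arrays it fell by 0.112 (adjusted p = 0.0284).

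The scores of the 3 pocket protein genes did not all go one way: RB1 and RBL1 fell and RBL2 rose. The difference between them was not tested, and protein was not measured. RB1, the retinoblastoma protein, was 1.50, 1.42 and 1.45 at 0 h, 1.19 and 1.13 at 24 h, and 0.980, 1.10 and 1.03 at 48 h. It was 1.32 on the 6 h array, the lowest of the 8 arrays up to then, and all later arrays lay below this value. RB1 fell by 0.423 (SE 0.0404, adjusted p = 4.16e-05). RBL1 was 1.63, 1.39 and 1.46 at 0 h, 1.17 and 1.15 at 24 h, and 0.909, 1.00 and 0.910 at 48 h. Its 0 h replicates had the widest spread of the 10 members, with replicate 1 the highest of all 13 arrays. RBL1 fell by 0.556 (SE 0.0561, adjusted p = 6.03e-05), and over the 11 arrays it fell by 0.488 (SE 0.0381, adjusted p = 1.34e-07).

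RBL2, the pocket protein of the DREAM complex in resting cells, was 1.65, 1.56 and 1.47 at 0 h, 1.80 and 1.77 at 24 h, and 1.73, 1.73 and 1.77 at 48 h. The arrays between 0.5 and 6 h held values from 1.59 to 1.65, so that the 5 late arrays lay above all 8 earlier ones, while those of 24 h and 48 h overlapped. The 0 h mean was 1.56 ± 0.0890 (SD, n = 3) and that of 48 h was 1.74 ± 0.0253 (SD, n = 3). RBL2 rose by 0.182 (SE 0.0448, adjusted p = 0.0163), and 5.77% of features rose further. This call was lost without 0 h replicate 3 (adjusted p = 0.0504), 48 h replicate 2 (adjusted p = 0.0514) or 48 h replicate 3 (adjusted p = 0.0765). Over the 11 arrays RBL2 rose by 0.227 (SE 0.0357, adjusted p = 1.85e-04).

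Of the factors that act with MuvB, MYBL2 and FOXM1 did not pass the test at 24 h over 13 arrays and fell by 48 h. MYBL2 was 2.12, 2.30 and 2.32 at 0 h, 2.13 and 2.07 at 24 h, and 1.52, 1.60 and 1.59 at 48 h. The 24 h arrays overlapped those of 0 h through replicate 1, and the 48 h arrays lay below all others. MYBL2 fell by 0.674 (SE 0.0533, adjusted p = 1.08e-05), from 2.25 ± 0.110 (SD, n = 3) to 1.57 ± 0.0475 (SD, n = 3). FOXM1, the forkhead factor of mitotic genes, was 1.42, 1.48 and 1.46 at 0 h, 1.42 and 1.35 at 24 h, and 1.08, 1.11 and 1.08 at 48 h. Again the 24 h and 0 h arrays overlapped and the 48 h arrays lay below all others. FOXM1 fell by 0.363 (SE 0.0343, adjusted p = 3.92e-05). LIN9 was 0.850, 0.865 and 0.957 at 0 h, 0.763 and 0.772 at 24 h, and 0.643 on each of the 3 arrays at 48 h, so that no groups overlapped, and it fell by 0.248 (SE 0.0361, adjusted p = 7.49e-04).

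**Figure D3:**
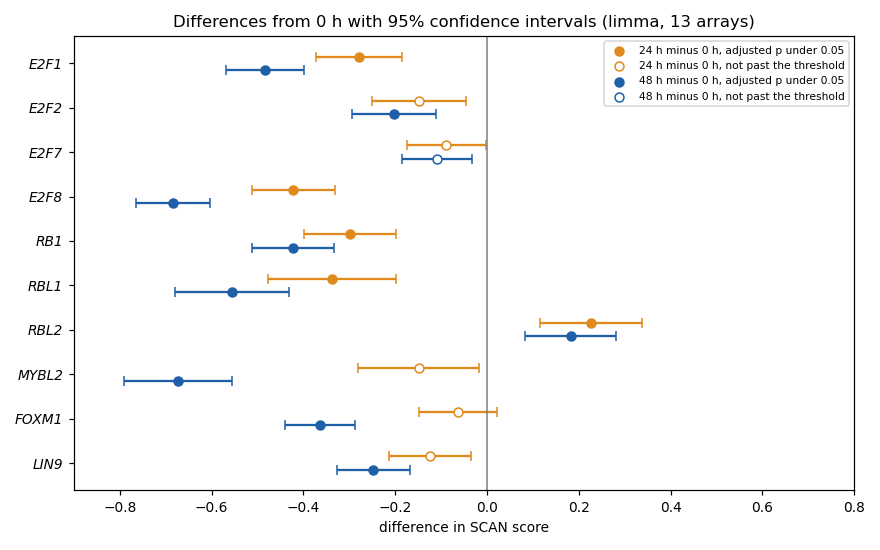
Difference in SCAN score from 0 h at 24 h (orange) and 48 h (blue) for each member, with 95% confidence intervals from limma over 13 arrays and filled points where the adjusted p was under 0.05. At 48 h 8 members fell and RBL2 rose, and at 24 h MYBL2, at -0.149, and FOXM1, at -0.0641, had not passed the threshold.

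At 24 h against 0 h, E2F1, E2F8, RB1 and RBL1 fell and RBL2 rose, 4 and 1 of the 10 members, where 2.22% of features were called lower and 5.12% higher, 7.33% in all. E2F8 fell by 0.422 (SE 0.0406, adjusted p = 6.26e-04) and RBL1 fell by 0.338 (SE 0.0628, adjusted p = 0.0108). RB1 fell by 0.299 (SE 0.0452, adjusted p = 0.00442) and E2F1 fell by 0.279 (SE 0.0426, adjusted p = 0.00462). RBL2 rose by 0.226 (SE 0.0501, adjusted p = 0.0235). The differences of the others were -0.149 for MYBL2 (adjusted p = 0.184), -0.148 for E2F2 (adjusted p = 0.0868), -0.124 for LIN9 (adjusted p = 0.0986), -0.0884 for E2F7 (adjusted p = 0.223) and -0.0641 for FOXM1 (adjusted p = 0.398). With 2 arrays at 24 h, these calls rest on both. Without 24 h replicate 1 those of E2F1 (adjusted p = 0.0526), RBL1 (adjusted p = 0.0894) and RBL2 (adjusted p = 0.186) were lost. Without 24 h replicate 3 those of E2F1 (adjusted p = 0.0789), RB1 (adjusted p = 0.0833), RBL1 (adjusted p = 0.135) and RBL2 (adjusted p = 0.148) were lost, and E2F8 kept its call both times. With the 11 arrays alone 7 members fell, with MYBL2, E2F2 and LIN9 added, and RBL2 rose, against 4.43% and 12.7% of features.

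From 24 h to 48 h, MYBL2, FOXM1, E2F8 and E2F1 fell, 4 of the 10 members against 1.98% of features, and 0 rose, against 0.517%, so that 2.50% of features were called in all. MYBL2 fell by 0.526 (SE 0.0596, adjusted p = 0.00126) and FOXM1 fell by 0.299 (SE 0.0384, adjusted p = 0.00203). E2F8 fell by 0.263 (SE 0.0406, adjusted p = 0.00617) and E2F1 fell by 0.205 (SE 0.0426, adjusted p = 0.0316). RBL1 had -0.218 (adjusted p = 0.125), LIN9 -0.124 (adjusted p = 0.181), RB1 -0.124 (adjusted p = 0.247) and E2F2 -0.0557 (adjusted p = 0.688). The smallest differences were those of RBL2, at -0.0438 (95% confidence interval -0.155 to 0.0671, adjusted p = 0.797), and E2F7, at -0.0206 (adjusted p = 0.893). MYBL2 passed without any 1 of the 0 h, 24 h or 48 h arrays. Without 24 h replicate 1 E2F8 (adjusted p = 0.134) and FOXM1 (adjusted p = 0.0588) did not pass, and E2F1 did not pass without any 1 of the 24 h or 48 h arrays (adjusted p = 0.105 to 0.305), nor after median centring (adjusted p = 0.126), quantile normalisation (adjusted p = 0.177) or eBayes with trend and robust settings (adjusted p = 0.0528). With the 11 arrays alone RBL1 (adjusted p = 0.00162) and LIN9 (adjusted p = 0.0346) fell as well, against 7.41% of features.

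The share of the 48 h change made by 24 h ranged widely. RB1 had made 70.7%, E2F8 61.6%, RBL1 60.9%, E2F1 57.7% and LIN9 49.8%, whereas MYBL2 had made 22.0% and FOXM1 17.7%. For the smaller differences the share was 81.1% in E2F7, 72.6% in E2F2 and 124% in RBL2, whose mean was higher at 24 h than at 48 h. These shares rest on few arrays. Without 24 h replicate 3 that of FOXM1 was 8.08%, and without 24 h replicate 1 it was 27.2%. With 1 replicate left out at a time MYBL2 lay between 17.2% and 28.7%, and E2F7 had 51.6% without 24 h replicate 1 and 111% without 24 h replicate 3. The change of the second day minus that of the first was tested in the same fit, a comparison added after the values were seen. It was -0.377 for MYBL2 (SE 0.107, adjusted p = 0.235), -0.235 for FOXM1 (SE 0.0687, adjusted p = 0.250) and -0.270 for RBL2 (SE 0.0896, adjusted p = 0.303). In limma over 13 arrays 0 members and 1 of 12764 features (0.00783%) passed. Over the 11 arrays MYBL2, at -0.314 (SE 0.0680, adjusted p = 0.0210), and RBL2, at -0.315 (SE 0.0658, adjusted p = 0.0176), passed, and FOXM1 had -0.219 (SE 0.0627, adjusted p = 0.0597). There 4.26% of features were called lower by this measure and 0.407% higher.

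**Figure D4:**
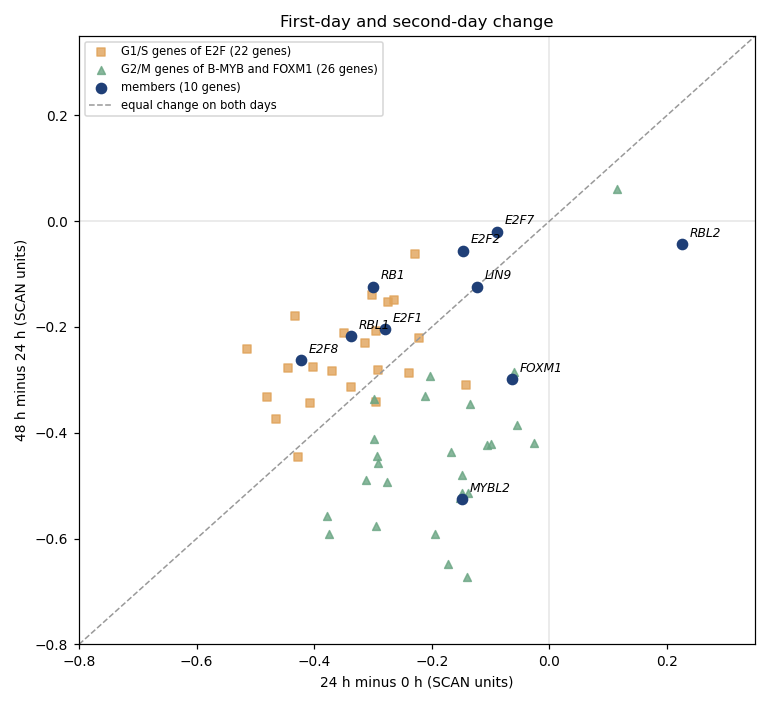
Change from 0 h to 24 h against change from 24 h to 48 h in SCAN units for the 10 members (dark points), 22 listed G1/S genes (squares) and 26 listed G2/M genes (triangles), each 1 gene over 13 arrays, with a dashed line for equal change on both days. MYBL2, FOXM1 and RBL2 lie below the line, E2F1, E2F2, E2F7, E2F8, RB1 and RBL1 lie above it, and LIN9 lies almost on it.

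Of the early arrays the means of 0.5 h with 1 h and of 4 h with 6 h were compared with 0 h, and the 2 h array was not tested. For the mean of 0.5 h and 1 h against 0 h, 0 of the 10 were called in limma and 0 had an unadjusted p under 0.05, with differences from -0.0718 for E2F8 to 0.0948 for MYBL2. Over all features 0 were called (0%), with 1152 of 12764 at an unadjusted p under 0.05. For the mean of 4 h and 6 h the differences ran from -0.0875 for RB1 to 0.105 for MYBL2, again with 0 members at an unadjusted p under 0.05, 0 features called (0%) and 619 at an unadjusted p under 0.05. Over the 11 arrays, without 0 h replicate 1, which was low for MYBL2, the differences of MYBL2 were 0.0317 and 0.0417. Those of RBL2 were then the largest of the members, at 0.0867 (SE 0.0391) and 0.122 (SE 0.0391), and were not called. In limma 1 of the 10 members then had an unadjusted p under 0.05 in each comparison. Each of these early time points has 1 array, assumed to vary like the replicated ones. The median standard error over all features was 0.0456, and differences of the size seen here were not detectable with these arrays.

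Of the partners of the members some fell and LIN37 rose. Of the other E2F and DP factors 3 of 7 listed were tested, and TFDP1, a DP partner of E2F factors, fell by 0.305 at 48 h (SE 0.0358, adjusted p = 1.67e-04). E2F3, an activator, had -0.148 (adjusted p = 0.109) and TFDP2 0.0154 (adjusted p = 0.860). Of the 5 genes listed as other MuvB subunits and MYBL1, 3 fell and 1 rose, against 9.38% and 9.47% of all features. MYBL1, the A-MYB factor, fell by 0.376 (SE 0.0384, adjusted p = 6.53e-05). LIN54, the subunit that binds the CHR, fell by 0.287 (SE 0.0564, adjusted p = 0.00495), and LIN52, the subunit that links MuvB to a pocket protein, fell by 0.148 (SE 0.0399, adjusted p = 0.0252). LIN37, a MuvB subunit needed for DREAM to repress, rose by 0.207 (SE 0.0456, adjusted p = 0.00912), and RBBP4, a histone-binding subunit, had -0.155 (adjusted p = 0.0613). LIN37 was at 1.13 at 0 h, 1.34 at 24 h and 1.34 at 48 h, so that its rise was made by 24 h. The median differences at 48 h were -0.148 over the E2F and DP factors and -0.155 over the MuvB list.

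Of the kinases and cyclins upstream of the pocket proteins 5 of 9 fell and 1 rose at 48 h, with a median difference of -0.156. Over all features 9.38% were called lower and 9.47% higher. CCNE2, a cyclin that activates CDK2, fell by 0.834 (SE 0.0373, adjusted p = 4.19e-07) and CDK2 fell by 0.324 (SE 0.0363, adjusted p = 1.22e-04). CDK6 had -0.287 (SE 0.0533, adjusted p = 0.00351) and CCNE1, the other E-type cyclin, had -0.172 (SE 0.0430, adjusted p = 0.0174). CCND1, the D-type cyclin that activates CDK4 and CDK6, rose by 0.129 (SE 0.0362, adjusted p = 0.0304). DYRK1A, the kinase that phosphorylates LIN52 for DREAM assembly, had -0.125 (adjusted p = 0.115). Of 7 CDK inhibitors listed only CDKN2A was tested, with 0.0504 (adjusted p = 0.431).

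Of the genes that these factors control, all 22 listed G1/S genes that were tested had fallen by 48 h, with a median difference of -0.593. Over all features 9.38% were called lower and 9.47% higher at 48 h. GINS2, of the replicative helicase, fell by 0.874 and TYMS, the thymidylate synthase, fell by 0.838. CDC6, a licensing factor, fell by 0.812 and MCM6, of the helicase, fell by 0.757. Of the 26 listed G2/M genes tested 25 fell and 1 rose, with a median over the list of -0.657. HMMR, a spindle protein, fell by 0.966 and CCNA2, a cyclin, fell by 0.935. KIF11, a spindle kinesin, fell by 0.870 and KIF20A, a kinesin of cytokinesis, fell by 0.822, whereas CDC25B, a phosphatase that activates CDKs, rose by 0.177. In the first 24 h 20 of the 22 G1/S genes but 12 of the 26 G2/M genes fell, with medians of -0.326 and -0.170. Over all features 2.22% were called lower there. From 24 h to 48 h 13 G1/S and 23 G2/M genes fell, against 1.98% of features, with medians of -0.278 and -0.451. With the 11 arrays alone 22 and 18 fell in the first 24 h, against 4.43% of features. From 24 h to 48 h 21 and 25 then fell, against 7.41%. The change of the second day minus that of the first had a median of 0.0898 over the G1/S genes, -0.248 over the G2/M genes and -0.0374 over all features. It passed for 0 genes of either list over 13 arrays. Over the 11 arrays it passed, as lower, for 10 G2/M genes and 0 G1/S genes, against 4.26% of features. The difference between the lists was not tested.

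The promoter windows of these lists were searched for the same motifs. The lists were drawn up as genes of E2F and as genes of B-MYB and FOXM1, so these shares are no independent evidence. The 27 genes of each list are those with a window, whether or not they were tested on the arrays. An E2F octamer was found in the windows of 16 of 27 G1/S genes (59.3%) and 3 of 27 G2/M genes (11.1%), against 3.99% of all genes. A CHR was found in 3 of 27 G1/S genes (11.1%) and 20 of 27 G2/M genes (74.1%), against 19.5% of all genes.

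Outside all lists, the genes whose scores over the 13 arrays were most like those of E2F8 were MASTL, a kinase that restrains a phosphatase in mitosis, TMPO, a lamina protein, and EXO1, a DNA repair exonuclease, with Pearson's r of 0.993, 0.993 and 0.992. EXO1 went from 1.54 at 0 h to 1.04 at 24 h and 0.759 at 48 h. For RBL2 they were ACOXL (0.970), CARS1, the cysteinyl-tRNA synthetase (0.966), and SMAD7, an inhibitor of TGF-beta signalling (0.943). ACOXL went from 0.748 at 0 h to 1.18 at 24 h and 1.04 at 48 h, and SMAD7 from 0.225 to 0.397 and 0.390. These values describe likeness over arrays that fall into an early and a late set.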

How the data were processed

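RNA of 13 control samples was hybridised by the authors to GeneChip Human Gene 2.0 ST arrays. Preprocessing by the authors used SCAN, array by array, with probes mapped by a Netaffx annotation, so the deposited unit is a score. Array medians lay between 0.0621 and 0.0798, and the SCAN version is not given in the sources used here. The study excluded some arrays it took for outliers, which it does not name. The number of arrays limits the precision, with a median standard error of 0.0407 at 48 h. Of 39937 features 15426 had 1 platform gene symbol, each matched by Entrez ID to RefSeq on GRCh38.p14, and 2662 without a value above 0 were left out, which left 12764.

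Time points were compared with limma 3.58.1 in R 4.3.3 by lmFit followed by eBayes, with a coefficient for every time point and 5 residual degrees of freedom. Tests were two-sided, p-values were adjusted by Benjamini-Hochberg across the 12764 features, and 0.05 was the threshold. The fit was tested on simulated data. Genes were named by rule: the 10 members, in each list up to 4 genes with the largest changes past the threshold and up to 4 moving against the majority, and the 3 genes most like the member with the largest fall or rise. RBBP4, E2F3, TFDP2, DYRK1A and CDKN2A were named outside it, after their values were seen. Members and lists were chosen with earlier results of these data known. Alternatives covered other scalings and filters, weights for arrays, another variance model, a replicate block and left-out arrays. Scripts used Python 3.11.15, pandas 2.3.3, numpy 2.4.6 and matplotlib 3.10.9.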

Additional observations from a re-analysis of the deposited data

How the results depend on the processing

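At 48 h the falls of E2F1, E2F2, E2F8, RB1, RBL1, MYBL2, FOXM1 and LIN9 passed under all 18 alternatives, E2F7 passed under 4 and the rise of RBL2 was lost under 3. These 18 are not all separate checks. The fit to only the 0, 24 and 48 h arrays repeats the fit as reported. The fit without 0 h replicate 1 and the 2 h array repeats that without 0 h replicate 1 alone. The 4 passes of E2F7 include both of these last fits. Without one replicate, 8 to 9 members fell and 0 to 1 rose at 48 h (1519 to 3418 features called), 1 to 7 fell and 0 to 1 rose at 24 h (87 to 2181), and 1 to 6 fell and 0 rose from 24 h to 48 h (76 to 1269). The early comparisons then had 0 to 28 features at 0.5 h and 1 h and 0 to 26 at 4 h and 6 h, and the second-day minus first-day change 0 to 596 features and 0 to 2 members lower.

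When unnamed features were tested too, 3896 were called at 48 h, against 2406, 490 from 24 h to 48 h, against 319, and 5 in the second-day minus first-day change, against 1. Members lower at 24 h, 4 of 10 in the comparison as reported, were 6 after centring each array on its median and 6 after quantile normalisation, and 7 with array weights. Array weights also called 2006 features at 24 h, against 936, and from 24 h to 48 h 1277 features and 7 members lower, against 4, and 17 and 11 features in the early comparisons, against 0. In the second-day minus first-day change they called 482 features and 2 members lower. With both 0 h replicate 1 and the 2 h array left out these counts were 2181 features and 7 members lower at 24 h, 1269 and 6 from 24 h to 48 h, 28 and 26 features in the early comparisons, and 596 and 2 in the second-day minus first-day change. Leaving out 0 h replicate 1 alone gave the same counts.

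Whether the replicate numbers of the titles pair the samples is not known. Same-numbered arrays of 0 h and 48 h had correlations of -0.0787, -0.146 and -0.00853 of their deviations from the time point mean. For 0 h and 24 h they were 0.0675 (replicate 1) and -0.00193 (replicate 3). Deviations from means of so few arrays cannot show whether same-numbered arrays share a culture or run. With the replicate number as a block 443 features and 0 members higher were called at 24 h and 187 features and 3 members lower from 24 h to 48 h, while 8 members fell and 1 rose at 48 h. The calls lost under the block were those of RBL2 at 24 h (0.222, adjusted p = 0.0648) and E2F1 from 24 h to 48 h (-0.207, adjusted p = 0.108). The cause of these changes was not tested. Other probesets of a member could not be tried, since each member has 1. The number of arrays limits what can be called, above all at the time points with 1 array.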
